A study of Mus musculus with 6 samples.

Results

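FOXC2 binding at the nuclear genes of the mitochondrial respiratory chain was read from the ChIP-seq peaks of sorted mouse podocytes. The genes were taken from GENCODE M21 by symbol alone: protein-coding genes on nuclear chromosomes whose symbol starts with Nduf, Sdh, Uqcr, Atp5, or Cox followed by a digit. This gave 107 gene records of 21938, with 106 symbols, because *Atp5o* has 2 records. By symbol, 46 belong to complex I, 8 to complex II, 8 to complex III, 27 to complex IV and 18 to complex V. By role, 77 code for subunits of the common complexes, 21 for assembly factors and 8 for tissue-restricted isoforms, and 1 gene, *Atp5s*, was kept apart. Peaks reaching into the 10 kb to either side of a gene start on GRCm38 were assigned to that gene.

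The podocytes came from male mT/mG reporter mice with a podocyte Cre, of mixed background, with littermates compared. The membrane-GFP reporter used for FACS marks cells in which the Cre was active. The ADR group received adriamycin, a podocyte toxin, at 18 mg/kg by retro-orbital injection on days 0 and 7, and the control group received PBS on the same days. Podocytes were sorted on day 9, and chromatin was precipitated with an antibody to FOXC2 given in the labels as Abcam b5060. The labels list 3 samples per group, which the authors merged into 1 list of peaks each. Such a list has no spread between mice, so the values carry no replicate error and PBS was not tested against ADR. A pooled list also cannot tell fewer bound cells from weaker binding in each cell.

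FOXC2 is a forkhead transcription factor that podocytes need to form and keep their foot processes. The respiratory chain passes electrons from NADH and succinate to oxygen through complexes I to IV and uses the proton gradient to make ATP at complex V. Most of its subunits are coded in the nucleus, in short genes with CpG-rich promoters where NRF1, the ETS factor GABP, the ERR nuclear receptors and YY1 are known to bind. In podocytes, inherited defects of mitochondria cause proteinuric disease, and adriamycin is known to damage mitochondria. The comparison between the lists asks how FOXC2 peaks at these genes differed between control and injured podocytes.

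The PBS list holds 41075 peaks and the ADR list 40067, and the read depth behind them is unknown. Each peak has a fold enrichment, the ratio of ChIP to local control signal at the summit, which reached 80.6 (PBS) and 49.1 (ADR). All 15 podocyte markers checked (such as *Nphs1* and *Podxl*) had a peak in both lists, and the 12 (PBS) and 13 (ADR) with a promoter peak had a median promoter fold of 17.1 and 19.2. Of 12 proximal tubule markers, 2 had a PBS peak and 6 an ADR peak, from 2 and 9 peaks, none with a promoter fold of 10. Peaks were found at 5 of 10 endothelial markers in each list, at 4 and 2 of 6 mesangial markers, at 1 of 6 immune markers in each list and at none of 6 distal tubule and collecting duct markers. Some of these were strong: *Plat*, an endothelial marker, had a promoter fold of 43.1 and 31.4, and *Pdgfrb*, a mesangial marker, a strongest peak of 31.8 and 28.7. The part of other cells in the values below was not tested.

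Nearly every respiratory chain gene had a FOXC2 peak nearby. In the PBS list 103 of 107 gene records (96.3%) had a peak within 10 kb, beside 58.8% of all coding genes. In the ADR list 97 (90.7%) had one, beside 55.9%. Counting only promoter peaks, which overlap the 500 bp to either side of the start, 94 records had one in the PBS list (87.9%, 95% Wilson interval 80.3 to 92.8) and 89 in the ADR list (83.2%, 75 to 89.1). Of all coding genes 46.3% (PBS) and 43.6% (ADR) had one. Wilson intervals here cover counting error only.

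Such shares were not particular to the chain. The 78 genes of the mitochondrial ribosome had promoter peaks in 84.6% in each list, and the 86 genes of the cytosolic ribosome in 89.5% (PBS) and 83.7% (ADR). The 40 proteasome genes stood at 77.5% and 65%. Of 37 chain genes that the symbol rule leaves out, such as cytochrome c (*Cycs*) and assembly factors with other names, 86.5% and 89.2% had a promoter peak. Of 20 genes of the tricarboxylic acid cycle and pyruvate dehydrogenase, which feed the chain with NADH and succinate, 95% and 100% did. The intervals of all these groups overlapped that of the respiratory chain.

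**Figure D1:**
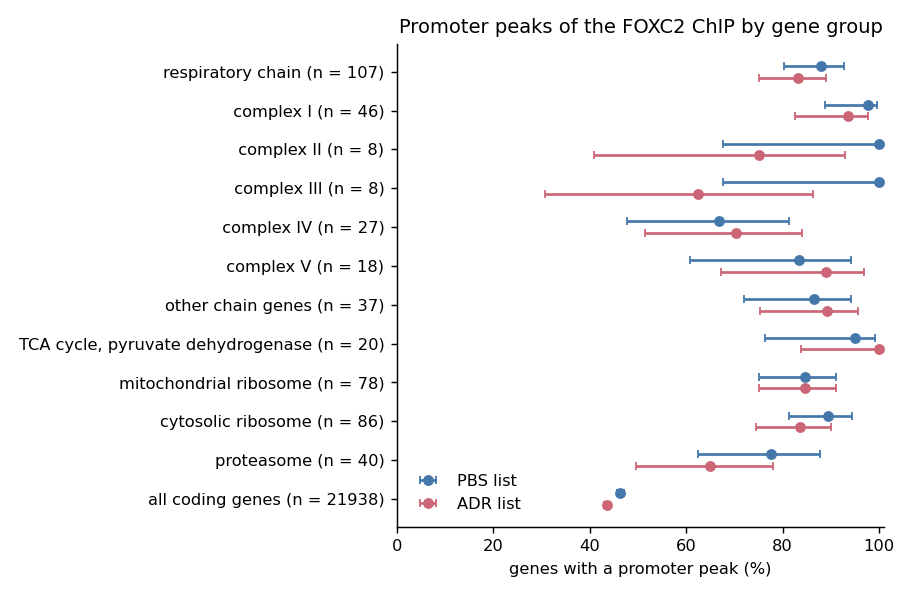
Share of genes with a promoter peak (x axis, percent) by gene group (y axis, with n) in the PBS and ADR lists. Points are shares and bars are 95% Wilson intervals. The 107 respiratory chain records lie at 87.9% and 83.2%, near the ribosomes and above all coding genes at 46.3% and 43.6%.

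The peaks sat on the starts of the genes. Of 102 promoter peaks in the PBS list, 63 (61.8%) had the summit within 100 bp of the start, and in the ADR list 61 of 94 (64.9%). Over all coding genes these shares were 43.6% and 45.9%. The median summit lay 1 bp downstream of the start for PBS and 5 bp for ADR. Many starts were close to another gene: 39 of the 107 (36.4%) had another coding start within 1 kb, against 21.4% of all coding genes with a promoter peak in either list. Outside the promoters there were 68 PBS and 64 ADR gene-peak pairs, and in 38 of each the summit was nearest to the start of another coding gene.

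**Figure D2:**
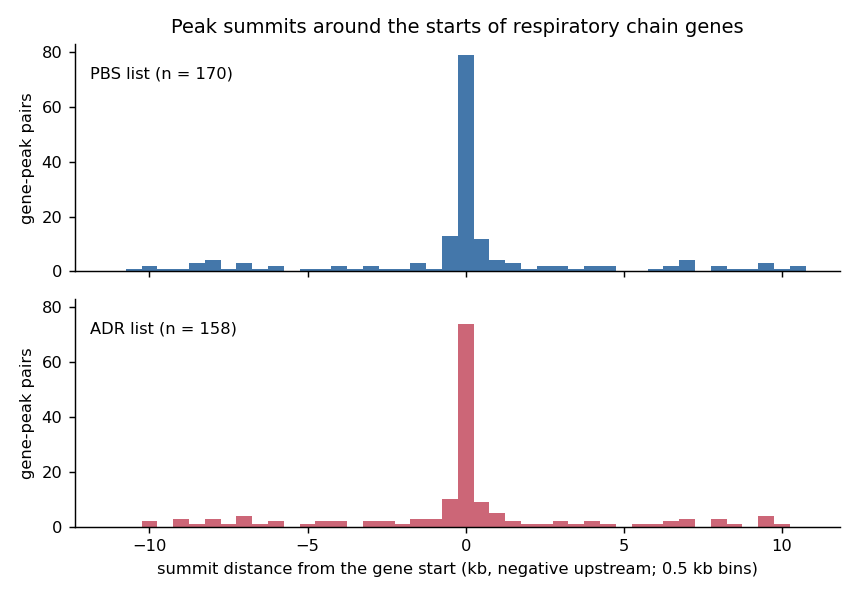
Number of gene-peak pairs (y axis) by summit distance from the gene start (x axis, kb, negative upstream, 0.5 kb bins) for the PBS list (n = 170, top) and the ADR list (n = 158, bottom). The central bin, within 250 bp of the start, holds 79 PBS pairs and 74 ADR pairs.

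Most promoter peaks of the chain had a fold under 10. The PBS median was 6.71 (interquartile range 5.53 to 9.08) and the ADR median 7.4 (5.23 to 9.79). Over all coding genes with a promoter peak the medians were 8.04 (5.72 to 12.5) and 8.12 (5.75 to 12.7). Over all peaks of each list, wherever they lay, the median was 6.53 (PBS) and 7.42 (ADR), close to the members. The proteasome genes had medians of 6.31 (PBS) and 7.11 (ADR), the mitochondrial ribosome 8.24 and 6.65, and the cytosolic ribosome 8.04 and 7.63. The chain genes outside the symbol rule had 7.81 and 7.42, and the tricarboxylic acid cycle group 8.85 and 7.75. Of these groups only the proteasome had a lower median than the chain in the PBS list. In the ADR list the proteasome and the mitochondrial ribosome did. In the PBS list 18 of 94 members (19.1%) reached a fold of 10, and in the ADR list 21 of 89 (23.6%), against 35.9% and 36.8% of coding genes with a promoter peak. For the proteasome these shares were 16.1% and 11.5%, for the mitochondrial ribosome 30.3% and 16.7%, and for the cytosolic ribosome 33.8% and 34.7%. The chain genes outside the symbol rule stood at 31.2% and 27.3%, and the tricarboxylic acid cycle group at 36.8% and 25%. Of the 85 records with a promoter peak in both lists, 60 stayed under 10 in both. Fold values also came in steps: 38 of the 94 PBS promoter folds had exactly the value of another member, as *Sdhb*, *Sdhaf2* and *Uqcrc2* all stood at 9.62. In the ADR list fewer did, 20 of 89.

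A few genes stood far above this level. The strongest peak of all was that of *Atp5g1*, which codes for a c subunit of the ATP synthase rotor. It had a fold of 70.8 in the PBS list, at a summit 295 bp upstream of the start, and of 39.5 in the ADR list at 291 bp. *Cox5a*, a subunit of cytochrome c oxidase, had 38.6 at 202 bp upstream and 25.8 at 164 bp. *Cox20*, an assembly factor for the oxidase, had 24.9 at 353 bp upstream and 21.1 at 396 bp. These summits lay between genes and belonged to peaks called in both lists. *Cox5b*, another oxidase subunit, which is named for a fold above 20 after its values were seen, had 22.3 (PBS) and 12.4 (ADR).

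*Sdhd*, a membrane anchor of complex II, shares its start region with *Timm8b* and had a promoter fold of 16.1 (PBS) and 10 (ADR), the highest of the 4 complex II subunits in the PBS list.

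The sequences under 3 of these summits are shown because they carry the letters that WT1, the podocyte zinc-finger factor, is known to prefer. Each is the GRCm38 sequence of 75 bases to either side of the PBS summit, on the strand of the gene: chr11:96075890-96076040 (minus strand), chr9:57520997-57521147 (plus) and chr9:50604148-50604298 (minus). Capitals mark GTGGGNG or its reverse complement, and in *Sdhd* also GCATGCG, the core of the NRF1 site, on the reverse strand.
Atp5g1: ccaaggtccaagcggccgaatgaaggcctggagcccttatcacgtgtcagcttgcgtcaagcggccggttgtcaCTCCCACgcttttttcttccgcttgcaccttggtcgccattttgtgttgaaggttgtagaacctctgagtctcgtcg
Cox5a: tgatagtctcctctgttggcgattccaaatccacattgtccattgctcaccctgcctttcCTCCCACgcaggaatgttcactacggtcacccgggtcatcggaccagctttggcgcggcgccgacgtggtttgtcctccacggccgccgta
Sdhd: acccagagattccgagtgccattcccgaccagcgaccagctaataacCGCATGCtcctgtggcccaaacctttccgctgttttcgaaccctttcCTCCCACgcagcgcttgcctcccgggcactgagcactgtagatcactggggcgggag
The match overlapped the summit base in *Atp5g1*. In *Cox5a* it ended 9 bp before the summit and in *Sdhd* it began 19 bp after it, along the strand of the gene. *Atp5g1*, *Cox5a* and *Sdhd* shared a run of 9 letters, CTCCCACGC. The 3 windows were chosen for GTGGGNG, whose reverse complement opens this run, so most of the sharing was set by that choice. Near the members 9 PBS peaks had a fold of at least 20, of which 6 held GTGGGNG within 100 bp of the summit, and 4 of the 9 held the longer GCGTGGGNG (44.4%, 18.9 to 73.3). Of the 1528 PBS peaks with such a fold near any coding gene, 55.5% held the shorter and 13.9% the longer letters. In the ADR list 4 of 10 such member peaks held the shorter letters (40%, beside 53.1% of coding peaks) and 2 of 10 the longer ones (20%, beside 10.2%). Of the 130 PBS member peaks under a fold of 10, 38 held the shorter letters (29.2%, beside 35.1%) and 2 the longer ones (1.54%, beside 3.44%). The longer letters were chosen after these sequences had been seen, and some of these sequences are among the 9 peaks counted.

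*Cox20* is shown beside them as a strong promoter peak without those letters. The window is chr1:178318702-178318852 (plus strand), and capitals mark the ETS core CCGGAAG and the SP/KLF core GGGCGG, each on the reverse strand.
Cox20: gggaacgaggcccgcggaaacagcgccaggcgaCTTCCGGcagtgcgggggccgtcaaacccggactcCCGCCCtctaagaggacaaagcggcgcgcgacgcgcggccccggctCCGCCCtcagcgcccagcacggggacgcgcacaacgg
An SP/KLF match ended 2 bp before the summit.

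Several of the highest folds lay nearest to the start of a neighbour. In *Atp5d*, the delta subunit of ATP synthase, the strongest peak had 53.2 (PBS) and 37.6 (ADR). It lay in an intron of *Atp5d*, 2779 bp downstream of the start in the PBS list, with the start of *Cbarp* as the nearest, at 576 bp. The promoter of *Atp5d* itself had 13 and 14.4. For *Ndufaf3*, a complex I assembly factor, the strongest peak sat at the start of *Impdh2* with 16.7 and 26.3, and its own promoter had 4.99 and 7.33. For *Ndufv2*, an iron-sulphur subunit of complex I, the strongest sat by the start of *Washc1* with 25.6 and 16.8, and the promoter had 11.4 and 10.9. For *Cox6a1* it sat at the start of *Triap1* with 19.7 and 25.5, while the promoter of *Cox6a1* had 6.35 and 2.91. Folds of the strongest peak in the window therefore do not describe the promoters of these 4 genes.

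*Cox14*, an assembly factor for cytochrome c oxidase, is a case where the window decides the value. A peak with its summit 778 bp upstream of the start, in an exon of *Gpd1*, had 53.4 in the PBS list. The peak at the same place in the ADR list had 16.1 at 771 bp, and its edge no longer reached the 500 bp of the promoter. The promoter value of *Cox14* thus passed from this peak at 53.4 to another at 9.66 in the ADR list. The peak at the start itself had 6.3 and 9.66.

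Between the lists the promoter folds moved little and in both directions. Of 85 records with a promoter peak in both lists, 42 were higher in the ADR list and 43 lower (49.4% higher, beside 45.4% of coding genes). The median log2 difference, ADR minus PBS, was -0.06 for the chain and -0.06 for all coding genes. Values of 64 records (75.3%) lay within 1.5 times of each other, against 73% of coding genes. A fold at least 2 times higher in the ADR list was seen for 2 records, where the background was 2.99%, and at least 2 times lower for 5, where it was 4.45%. Taking the strongest peak in the window, 44 of 96 records were higher (45.8%, background 46.7%) and 52 lower, with a median log2 difference of -0.07. Across the 85 records Spearman's rho between the lists was 0.584, and across 9063 coding genes it was 0.735. These are descriptions across genes that share the same 2 pooled lists and peak caller, and genes are not replicates.

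**Figure D3:**
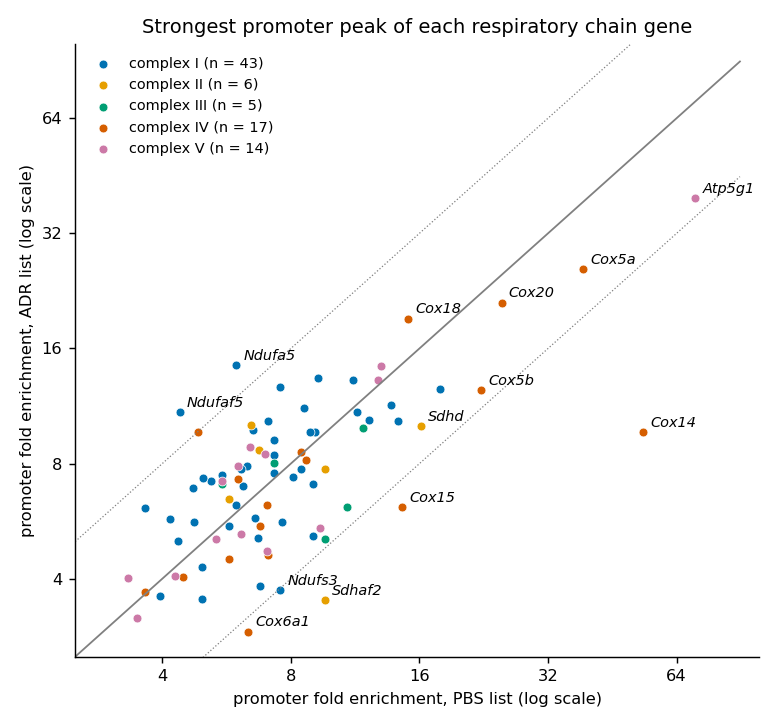
Fold of the strongest promoter peak in the PBS list (x axis) and in the ADR list (y axis), both on log scales, for the 85 respiratory chain records with a promoter peak in both lists, coloured by complex. The solid line marks equal folds and dotted lines a ratio of 2. Most points lie under 10 on both axes, and the 5 records at 20 or more in the PBS list lie below the line.

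The 5 records with a PBS promoter fold of at least 20 (*Atp5g1*, *Cox14*, *Cox5a*, *Cox20* and *Cox5b*) were each lower in the ADR list. Among all coding genes with such a PBS fold and an ADR promoter peak, 81.0% were lower, so the same direction was common at that height. The median log2 difference was -0.84 for the 5 records and -0.38 for those coding genes. The 5 include *Cox14*, whose values come from separate peaks. In the 80 records under 20 the counts were 42 higher and 38 lower.

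A rise of at least 2 times at the promoter was seen for *Ndufa5* and *Ndufaf5*. *Ndufa5*, an accessory subunit of complex I, had 5.95 under PBS and 14.4 under ADR, a log2 difference of 1.28. Another site, 2892 bp upstream in an intron of *Asb15*, had 5.92 and 30.5. *Ndufaf5*, a complex I assembly factor, had 4.39 and 10.9 at a start region shared with *Esf1*, a log2 difference of 1.31. *Cox7a2*, an oxidase subunit, had 4.86 and 9.66, and *Ndufab1*, the mitochondrial acyl carrier protein, 7.55 and 12.7. *Atp5f1*, a peripheral stalk subunit of ATP synthase, had a strongest peak in the window of 5.53 and 9.66, at a summit nearest to the start of *Wdr77*. Its PBS peak did not reach the 500 bp of the promoter.

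A pair of windows with a much stronger ADR peak are shown because they look unlike the promoters above. The first is the *Asb15* intron site upstream of *Ndufa5*, chr6:24530830-24530980 (minus strand). The other, chr10:128081956-128082106 (plus strand), is an ADR-only peak with a fold of 17.7 that lies 1242 bp upstream of *Atp5b*, the catalytic beta subunit of ATP synthase. Capitals mark the TEAD core CATTCC in the first and CCAAT, on the reverse strand, in the second.
Ndufa5: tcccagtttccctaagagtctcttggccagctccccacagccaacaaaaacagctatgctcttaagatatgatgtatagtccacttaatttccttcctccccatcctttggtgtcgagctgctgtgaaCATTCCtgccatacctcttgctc
Atp5b: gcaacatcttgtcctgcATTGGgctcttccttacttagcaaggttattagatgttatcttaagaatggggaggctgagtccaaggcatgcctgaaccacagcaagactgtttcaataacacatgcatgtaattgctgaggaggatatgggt
Within 100 bp of the summit the GC content was 45.3% at the first site and 46.8% at the other, where the median of the 94 ADR promoter peaks of members was 62.9%. Neither window held the forkhead core TAAACA. At the start of *Atp5b* itself a peak of 5.94 was called in the PBS list only.

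The 5 records whose promoter fold fell by at least 2 times were *Cox14*, described above, and *Sdhaf2*, *Cox15*, *Cox6a1* and *Ndufs3*. *Sdhaf2*, which helps to attach FAD to the succinate dehydrogenase flavoprotein, had 9.62 (PBS) and 3.52 (ADR), at a peak nearest to the start of *Cpsf7*. *Cox15*, an enzyme of heme A synthesis, had 14.6 and 6.15 at a start shared with *Cutc*. *Ndufs3*, a core subunit of complex I named because it met this limit, had 7.56 and 3.73. With the promoter taken as 500 bp, the fall of *Cox14* compares separate peaks.

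By complex, the shares of records higher in the ADR list varied around the 45.4% of coding genes. In complex I, 25 of 43 records were higher in the ADR list and 18 lower, with a median log2 difference of 0.13. In complex IV 5 of 17 were higher and 12 lower, with a median of -0.24. The mitochondrial ribosome was similar, with 20 of 63 genes higher and a median of -0.26, so this was not particular to complex IV. Complexes II (3 of 6 higher) and V (7 of 14 higher) were even, with medians of -0.07 and -0.01. In complex III 2 of 5 were higher and the median was -0.25. The difference between complexes was not tested, since all records come from the same pair of lists.

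**Figure D4:**
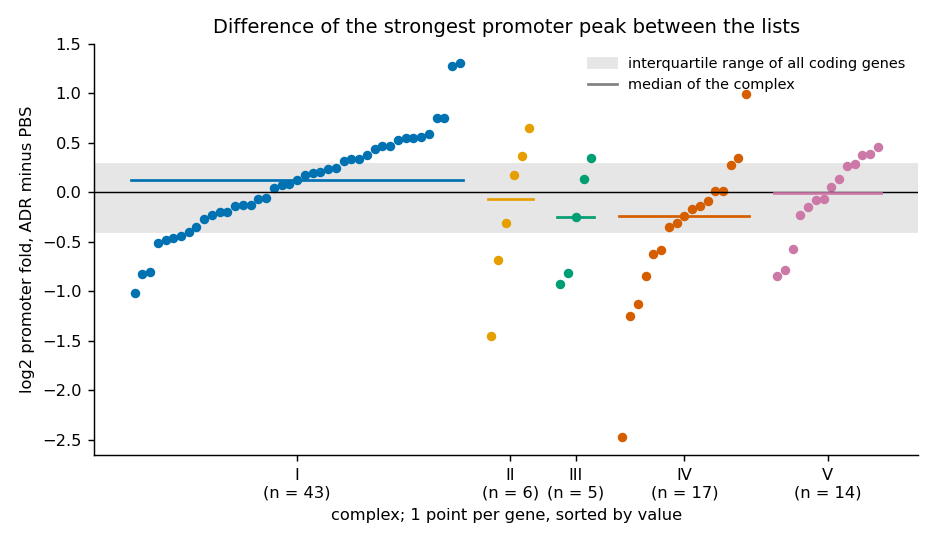
Log2 difference of the strongest promoter fold, ADR minus PBS (y axis), with 1 point per record sorted within each complex (x axis). Coloured lines are medians of the complexes, at 0.13 for complex I and -0.24 for complex IV, and the grey band is the interquartile range of all coding genes, -0.40 to 0.29.

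Few records had a promoter peak in a single list, mostly with low folds. Of 98 records with a promoter peak in either list, 9 had it in the PBS list only and 4 in the ADR list only, beside 10.4% and 4.66% of such coding genes, shares close to those of the members. Of the 9, 3 belonged to complex III: *Uqcrc1*, a core protein, at 6.01, *Uqcr10* at 4.72 and *Uqcrh* at 5.75. All 8 complex III records had a PBS promoter peak and 5 an ADR one. The other 6 were *Ndufa3* (5.75), *Ndufaf6* (2.99), *Sdhaf1* (6.53), *Sdhaf4* (3.48), *Cox4i2* (3.77) and *Atp5b*, given above. Of the 4 in the ADR list only, *Cox17*, a copper chaperone of cytochrome c oxidase, had a fold of 5.1 and *Cox10* 3.3. The other 2, *Atp5f1* at 9.66 and *Atp5h* at 8.15, were not weak. Each had an overlapping PBS peak just outside the 500 bp, and *Atp5h* also gained a peak of 6.13 beside its start.

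Counted over the whole window, peak numbers were mostly equal. Of 104 records with a peak in either list, 67 (64.4%) had the same number in both, 13 (12.5%) had more in the ADR list and 24 (23.1%) fewer. Among all coding genes 17.6% had more and 30.3% fewer. *Sdhaf1*, a complex II assembly factor, went from 4 PBS peaks to 1 ADR peak, the largest drop, and none of the 4 exceeded a fold of 6.53. *Ndufb8*, an accessory subunit of complex I, went from 1 to 3, and the added peaks, of 4.89 and 4.97, lay at the starts of *Sec31b* and *Hif1an*. *Ndufc1* had 3 and 4 peaks, *Ndufa6* 3 and 4, *Atp5h* 5 and 6, and *Atp5b* 3 and 4.

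Of the 169 PBS peaks near members, 26 (15.4%, 10.7 to 21.6) had no overlapping ADR peak, and of the 157 ADR peaks, 21 (13.4%, 8.92 to 19.6) had no PBS peak. Over all peaks near coding genes the shares were 25.2% and 18.4%. Peaks found in 1 list had a median fold of 4.81 (PBS) and 4.97 (ADR), and those found in both had 7.2 and 7.47. The strongest ADR-only peak was the 17.7 upstream of *Atp5b*, and the strongest PBS-only peak, at 8.77, lay 1973 bp upstream of *Ndufa4l2*.

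Of the 8 tissue-restricted isoforms, 5 had a PBS peak (62.5%) and 3 an ADR peak (37.5%), beside the 58.8% and 55.9% of all coding genes. Of these isoforms, which stand in for the common subunits in muscle, lung, testis or hypoxic cells, *Cox6a2*, *Cox7b2* and *Cox8c* had no peak in either list, and they were the only members without one. The 5 with a PBS peak each had fewer peaks in the ADR list. *Ndufa4l2*, known as a hypoxia-induced gene, had 4 PBS peaks up to 11.2 and 3 ADR peaks up to 5.28. *Cox6b2* had a promoter fold of 6.78 and 5.49, and *Cox7a1* 3.64 and 3.68. *Cox4i2* (3.77) and *Cox8b* (3.57) had 1 peak each, in the PBS list only. With *Ndufa3*, *Ndufaf6*, *Sdhaf4*, *Uqcrc1* and *Cox7b*, whose single peak of 4.67 lay at the start of *Magt1*, these were the 7 members with peaks in the PBS list alone, and *Cox17* was the only member with a peak in the ADR list alone. Of the 13500 coding genes with any peak, 9.20% had PBS peaks only and 4.44% ADR peaks only.

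In complex II, which also works in the tricarboxylic acid cycle, all 4 subunits had a promoter peak in both lists. *Sdha*, the flavoprotein, had 5.74 (PBS) and 6.48 (ADR). *Sdhb*, the iron-sulphur protein, had 9.62 and 7.74. *Sdhc*, a membrane anchor, had 6.72 and 8.7, where the ADR value came from a separate ADR-only peak and the peak at its own start had 6.1. *Sdhd*, with 16.1 and 10, was described above. The 4 subunits thus lay on both sides of equality.

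The letters known for respiratory chain promoters were found under more of the member summits than under promoter summits at large. Exact matches on either strand were sought within 100 bp of the summit of the 102 PBS promoter peaks of members and of 10174 promoter peaks of all coding genes. NRF1 (GCATGCG) was found in 11.8% of member peaks (6.86 to 19.4) and 4.31% of all, ETS (CCGGAAG) in 23.5% (16.4 to 32.6) and 13.8%. YY1 (AAGATGG) was found in 17.6% (11.5 to 26.2) and 4.85%, and ERR (AAGGTCA) in 11.8% (6.86 to 19.4) and 1.6%. At least 1 of these 4 was in 52% of member peaks (42.4 to 61.4) and 22.7% of all. Each of these intervals lay above the share of all promoter peaks. In the ADR list the values were 10.6%, 23.4%, 17% and 10.6% for members, and 4.92%, 14.7%, 5.07% and 1.52% for all.

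These letters were also found in more of the member promoters as such, bound or not. In the 500 bp to either side of the start, ERR was present in 40.2% of the 107 members and 14.5% of all 21938 coding genes. NRF1 was present in 19.6% and 8.34%, ETS in 35.5% and 19.2%, and YY1 in 32.7% and 18.4%. SP/KLF (GGGCGG) was likewise present in more member promoters, 74.8% against 60.4%. The 21938 genes include many without a promoter peak: 46.3% had one in the PBS list, beside 87.9% of members. The summit shares cover promoter peaks only, so their background differs from this one. In windows 1 kb to either side of the PBS summits, NRF1 was in 0.98% and ETS in 0 of 204 windows, YY1 in 3.92% and ERR in 5.39%. Beside the ADR summits NRF1 was in 1.06% and ETS in 0 of 188 windows, YY1 in 5.32% and ERR in 6.91%. That ERR share lay inside the interval of the ADR member summits (5.88 to 18.5).

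At the summits themselves SP/KLF was rarer in members. It was found in 37.3% of PBS member peaks (28.5 to 46.9) and 58.5% of all, and the GC content had a median of 62.2% and 65.2%. WT1 (GTGGGNG) was found in 31.4% (23.2 to 40.9) and 35.6%, and CCAAT, the NF-Y box, in 24.5% (17.2 to 33.7) and 25%. The forkhead core TAAACA was in 1 of 102 PBS member peaks (0.98%, 0.173 to 5.35) and in 3 of 94 ADR member peaks (3.19%), against 3.56% and 3.68% of all promoter peaks. In the flanking windows of the PBS member peaks it was in 13.2%. TEAD (CATTCC) was in 4.9% of PBS member peaks and 7.8% of all, AP-1 (TGANTCA) in 4.9% and 3.19%, and LMX1B (TAATTA) in 0.98% and 0.659%, each in at most 5 of the 102. A match is a description of letters, short motifs can overlap each other, and no match tells nothing about the factor.

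**Figure D5:**
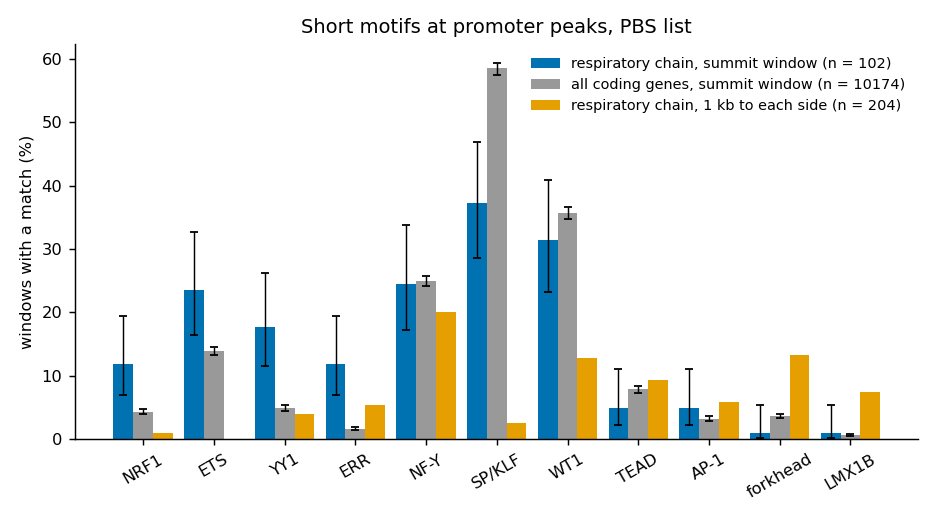
Share of windows with an exact match to each motif (y axis, percent) for the 102 PBS promoter peaks of respiratory chain genes, the 10174 of all coding genes, and 204 windows 1 kb to either side of the former. Bars with whiskers have 95% Wilson intervals; ERR and YY1 stand at 11.8% and 17.6% in member peaks and at 1.6% and 4.85% in all.

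Further promoter windows show such letters at *Cox6a1* and *Ndufa6*, with folds between the PBS quartiles of the members, and at *Cox18*, with a higher one. They are chr5:115348982-115349125 (minus strand, PBS peak of 6.35), chr15:82354323-82354440 (minus strand, PBS peak of 8.46) and chr5:90224008-90224208 (minus strand, ADR peak of 19.1). *Cox18*, an assembly factor chosen after its values were seen, had 15.1 in the PBS list. The windows reach at most 100 bases to either side of the summit and leave out annotated UTRs. Capitals mark NRF1 in *Cox6a1* and *Ndufa6* and ERR in *Cox18*, on either strand.
Cox6a1: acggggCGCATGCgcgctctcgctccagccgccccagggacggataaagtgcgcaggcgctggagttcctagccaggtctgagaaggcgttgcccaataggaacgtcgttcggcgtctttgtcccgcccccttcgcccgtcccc
Ndufa6: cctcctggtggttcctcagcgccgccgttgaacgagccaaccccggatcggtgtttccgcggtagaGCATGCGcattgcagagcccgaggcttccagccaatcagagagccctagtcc
Cox18: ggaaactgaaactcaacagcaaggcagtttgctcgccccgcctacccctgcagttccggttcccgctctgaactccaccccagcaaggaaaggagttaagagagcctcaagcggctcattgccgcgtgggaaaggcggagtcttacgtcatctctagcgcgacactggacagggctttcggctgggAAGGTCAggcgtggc
The NRF1 letters ended 88 bp before the summit in *Cox6a1* and 28 bp before it in *Ndufa6*, and the ERR letters began 86 bp after it in *Cox18*. PBS promoter peaks with an ETS match had a median fold of 7.43 and those without it 6.24, but in the ADR list the order was turned, with 5.9 and 7.51. For ERR the medians were 6.74 and 6.49 (PBS) and 6.31 and 7.31 (ADR).

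The regulators of the chain had a higher median fold than its members. Of 18 regulators of mitochondrial biogenesis, 13 had a PBS promoter peak and 15 an ADR one. Their median fold was 12.8 and 13.2, beside 8.04 and 8.12 over all coding genes with a promoter peak. *Gabpb1*, a GABP subunit, had 28.7 and 21.9, and *Nrf1* 21.8 and 19.8. *Esrra*, which codes for the ERR receptor of high-energy tissues, had 16.9 and 13.8, and *Tfam*, the mitochondrial transcription factor, 14.1 and 15.8. *Gabpa* shares its peak with *Atp5j*, at 12.8 and 13.2. *Pprc1*, a coactivator of the PGC-1 family, had promoter folds of only 7.82 and 8.37, and its strongest peak in the 10 kb window had 17.5 and 29.2. Lower promoter folds were seen for *Yy1*, at 8.33 and 10.9, and *Polg2*, at 6.12 and 6.36. *Polrmt* and *Twnk* had a promoter peak in the ADR list only, at 4.51 and 6.1. *Ppargc1a*, *Esrrg* and *Mterf1a* had no peak in either list. The comparison of regulators and members was not tested.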

How the data were processed

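FOXC2 ChIP-seq was measured in sorted podocytes of 3 PBS and 3 ADR samples. After trimming, the authors aligned reads to GRCm38 and ran the nf-core/chipseq pipeline to call narrow peaks, pooling samples by condition. Which caller version and threshold they used is not given in the sources used here. Peak names bear only 1 sample's label. The deposited lists give for each peak a fold enrichment (a ratio of ChIP to local control), a whole-number score, −log10 values of p and q, and the summit position. The p and the score were not used, and no column of per-sample values was left without a sample (0). Read depth is unknown, so intervals cover counting error only, and a list of peaks that passed a caller's threshold shows no signal below it.

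Genes came from GENCODE M21 and sequences from the GRCm38 RefSeq assembly; 0 peaks ended beyond a chromosome. Python 3.11.15, NumPy 2.4.6, pandas 2.3.3, SciPy 1.17.1 and matplotlib 3.10.9 were used, and the counting was tested on simulated lists. A peak counted for a gene within 10 kb of the start of its record, and as a promoter peak when it overlapped the 500 bp to either side; peaks of the lists sharing at least 1 bp were called in both. The promoter fold is that of the strongest promoter peak. Complexes follow the symbol, although *Ndufa4* is now placed in complex IV. No test was made, because each condition has 1 list.

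Named members were the 10 with the highest fold, the 5 largest and 5 smallest differences in fold and in peak number, up to 5 with peaks in 1 list only, the tissue-restricted isoforms, the complex II subunits and members without a peak; others are said to be chosen after their values were seen, or were listed to complete a count. Some items that this rule or the labels name are not reported here. The members, gene lists and motifs were chosen with earlier results of these data known. Alternatives were other windows, promoters, gene starts, peak strengths, overlaps and members, and a narrower motif window.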

Additional observations from a re-analysis of the deposited data

How the results depend on the processing

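Of 96 recomputed values, 51 stayed inside the 95% interval of the value reported and 45 left it. The median log2 difference of the strongest peak stayed inside its interval (-0.23 to 0.13) under all 7 alternatives. With −log10 q of at least 5, members with a peak came to 86.9% (PBS) and 82.2% (ADR), beside 54.2% and 51.6% of coding genes. Members with a promoter peak came to 76.6% and 72%, beside 41.7% and 39%. With a fold of at least 5, members with a peak were 79.4% and 78.5%, beside 51% and 49.5%. Those with a promoter peak were 69.2% and 68.2%, beside 38.6% and 36.8%, and ADR-only peaks were 20.8%. With the 20000 peaks of smallest q, members with a peak were 60.7% and 47.7%, beside 41.9% and 35.9%. Those with a promoter peak were 47.7% and 39.3%, beside 30.3% and 24.5%. In that setting PBS-only peaks became 34.1% and ADR-only peaks 19.7%, with 37.1% of members having fewer ADR peaks and 47.1% equal. In a 50 kb window the shares with a peak were 99.1% and 98.1%, and 32.1% of members had more, 34.9% fewer and 33% equal. Overlap of at least 50% gave 26% PBS-only and 21.7% ADR-only peaks, and summits within 200 bp 21.9% PBS-only.

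In the narrower motif window, 50 bp to either side, 18 of 22 motif shares fell out of their intervals, as fewer bases were searched. PBS shares were ERR 3.92%, ETS 11.8%, YY1 10.8%, SP/KLF 17.6%, WT1 17.6%, TEAD 1.96%, LMX1B 0% and forkhead 0%. ADR shares were ERR 4.26%, ETS 14.9%, YY1 6.38%, NRF1 5.32%, CCAAT 14.9%, SP/KLF 23.4%, WT1 17%, TEAD 2.13%, LMX1B 0% and forkhead 0%. All coding promoter peaks then held ERR in 0.835% (PBS) and 0.768% (ADR) and YY1 in 2.47% of each list. The flanking windows of members held ERR in 2.45% (PBS) and 2.13% (ADR), inside the member intervals (1.54 to 9.65 and 1.67 to 10.4). The member interval then no longer lay above all promoter peaks for ETS in the PBS list (6.86 to 19.4, beside 7.87%) and NRF1 in the ADR list (2.29 to 11.9, beside 2.73%). The longer WT1 letters, chosen after seeing the data, were in 3.92% (PBS) and 4.26% (ADR).

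No paired analysis was possible because the samples of a condition were merged into 1 list, although the labels number the samples alike; leaving out a sample was likewise not possible. The unknown read depth limits any reading of peaks called in 1 list.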
